A study of Mus musculus with 16 samples.

Results

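The comparison described here, CT16 VIP vs. CT10, sets slices of the suprachiasmatic nucleus (SCN) harvested 6 h after addition of vasoactive intestinal peptide (VIP) against untreated slices. Its members are the 4 arrays labelled as VIP-treated and harvested at CT16 and the 4 arrays labelled as untreated and harvested at CT10, which are 8 of the 16 arrays of the series. All slices were organotypic cultures from C57BL/6J pups of postnatal day 8 to 11, kept for 7 days before use. VIP was added at CT10, where CT is circadian time, and the labels give a dose of 1 µM, whereas the study's methods give a higher dose. The other 8 arrays are slices harvested at CT12, 2 h after vehicle (CT12 Veh, 4 arrays) or VIP (CT12 VIP, 4 arrays). The CT10 arrays are numbered 1, 3, 4 and 5 and those of each other group 1 to 4. No vehicle group was harvested at CT16, so VIP, circadian time and handling cannot be told apart in this comparison. Whether each slice came from its own animal is not given, so the p-values measure only the spread between these slices, part of which may be technical.

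The SCN is the master circadian pacemaker of mammals, and its cells keep time through a transcriptional-translational feedback loop in which CLOCK and BMAL1 drive the Per and Cry genes, whose proteins then repress their own transcription. VIP is a peptide released by neurons of the SCN core. It acts on the VPAC2 receptor, which signals through cAMP and phospholipase C. CREB is a transcription factor that binds the cAMP response element (CRE). In the study, inhibiting the ERK kinases weakened the circadian response of slices to VIP, while a CREB inhibitor left it unchanged. Each array measured RNA of a whole slice, in which fewer cells of a type and less RNA per cell cannot be told apart.

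Array CT16 VIP 1 stood apart from the rest of its group. It had 16923 probes detected (detection p of 0.01 or less), against 8019 to 11562 on the other CT16 VIP arrays and 10079 to 14681 on the CT10 arrays. Its normalised values correlated with those of the other CT16 VIP arrays at r between 0.875 and 0.922, whereas the other 3 correlated among themselves at 0.923 to 0.941 and the CT10 arrays among themselves at 0.942 to 0.968. Over the probes that differed between the groups, its median difference from CT10 was 1.23 for higher probes and -0.87 for lower probes, on the log2 scale, against 1.17 to 1.23 and -0.97 to -1.14 on the other 3 arrays. Results are therefore given with all 8 arrays and, where stated, without CT16 VIP 1. Levels are log2 values after background correction and quantile normalisation of the 8 arrays. A probe was called where the Benjamini-Hochberg adjusted p of limma was under 0.05, and every adjusted p and standard error (SE) below is from limma.

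Slices 6 h after VIP had more probes higher than lower than untreated slices. Of 18763 probes tested, 445 (2.37%) were called, of which 312 (1.66%) were higher and 133 (0.709%) lower in CT16 VIP. By the brightest probe of each gene, the largest rises were those of Ccl7, Ptx3, Ccl2, Stc1, Gjb2 and Cartpt, and the largest fall was in the clock-output gene Dbp. Over the genes, each taken by its brightest probe, 198 of 10190 (1.94%) were higher and 96 (0.942%) were lower. The median difference over all genes was -0.04.

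The balance of higher and lower calls depended on the array that stood apart. Without CT16 VIP 1, 16179 probes passed the detection filter, of which 320 were higher and 264 lower, so that higher probes made up 54.8% of the calls instead of 70.1%. Of the 312 higher probes 269 were called again, as were 123 of the 133 lower probes. In total 20 called probes no longer passed the filter, and none had the opposite sign. In the authors' globally normalised values 366 probes were higher and 200 lower (64.7% higher), with 289 and 101 of the calls kept. A normalisation of all 16 arrays with a fit of the 4 groups called 498 higher and 423 lower, and a stricter filter, detection on every array of a group, 294 higher and 221 lower. The number of lower probes also moved by more than 1.5 times when other single arrays were left out: it was 63 without CT10 1, 46 without CT10 4, 44 without CT10 5, 85 without CT16 VIP 2 and 70 without CT16 VIP 3. Without CT10 5 the number of higher probes was 188. At an unadjusted p under 0.05 the balance turned, with 1144 probes higher and 1475 lower.

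**Figure D1:**
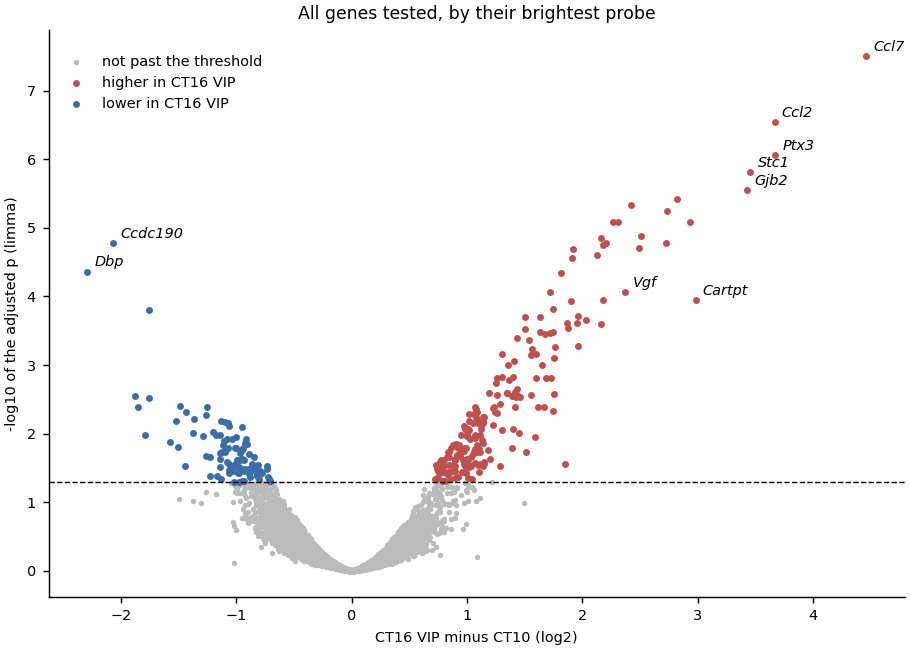
Each point is 1 of the 10190 genes tested, placed by its log2 difference (CT16 VIP minus CT10, 4 arrays each) and by the negative log10 of its adjusted p from limma. The dashed line is the threshold of 0.05. The 198 higher genes reach a difference of 4.45 (Ccl7), and the 96 lower genes reach -2.29 (Dbp).

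The chemokine gene Ccl7, which encodes a ligand that draws monocytes, had the largest rise when each gene was taken by its brightest probe. Its level was 4.81, 5.01, 4.92 and 4.82 on CT10 1, 3, 4 and 5, and 9.32, 9.16, 9.27 and 9.62 on CT16 VIP 1 to 4. It was detected on no CT10 array and on all 4 CT16 VIP arrays, so that it was at least 8.59-fold higher, with a fitted log2 difference of 4.45 (SE 0.17, adjusted p = 3.1e-08). A bound of this kind sets the mean of the CT16 VIP arrays against, for each CT10 array, the higher of its lowest detected signal and the gene's own value. It holds for the brightest probe in this normalisation only. The other Ccl7 probe, detected on 2 CT16 VIP arrays, differed by 1.28 (SE 0.24, adjusted p = 0.012). Ccl2, the gene of a related monocyte chemokine, was at 4.80 to 5.01 in CT10 and at 8.27 to 8.89 in CT16 VIP, at least 5.02-fold higher (log2 difference 3.67, SE 0.18, adjusted p = 2.9e-07). For both genes the CT10 arrays were below detection, and the CT16 VIP arrays stood well clear of them.

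Ptx3, which encodes a secreted pentraxin of innate immunity, was at 4.85 to 5.68 in CT10 and at 8.68 to 9.12 in CT16 VIP (at least 6.51-fold higher, log2 difference 3.67, SE 0.20, adjusted p = 8.8e-07). The other Ptx3 probe differed by more, 4.07 (SE 0.16, adjusted p = 3.1e-08), so the order of Ccl7 and Ptx3 depends on the probe. Stc1, the gene for the secreted glycoprotein stanniocalcin, was at 5.71, 5.06, 5.45 and 5.03 on the CT10 arrays and at 8.62, 8.59, 8.81 and 9.05 on the CT16 VIP arrays (at least 5.75-fold higher, log2 difference 3.46, SE 0.20, adjusted p = 1.6e-06). Neither gene was detected on any CT10 array. The gap junction gene Gjb2, whose product is a connexin, was at 5.50, 5.18, 6.15 and 5.85 in CT10 and at 9.00, 9.12, 9.00 and 9.27 in CT16 VIP. It was at least 7.24-fold higher, with a log2 difference of 3.43 (SE 0.22, adjusted p = 2.8e-06), and both of its probes were called. CT16 VIP 1 lay within the range of the other CT16 VIP arrays for Ptx3 and Stc1.

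Cartpt, which encodes the neuropeptide precursor of CART, was at 6.21, 5.16, 6.08 and 6.58 on the CT10 arrays, 2 of which detected it, and at 9.29, 8.37, 9.34 and 8.96 on the CT16 VIP arrays. The log2 difference was 2.98 (SE 0.30, adjusted p = 0.00011). Vgf, the gene of a secreted neuropeptide precursor, was at 6.72, 6.70, 6.34 and 6.32 in CT10 and at 8.30, 8.79, 9.20 and 9.29 in CT16 VIP, a log2 difference of 2.37 (SE 0.23, adjusted p = 8.6e-05). Here CT16 VIP 1 was the lowest of its group, and the difference without it was 2.55 (adjusted p = 4.1e-05).

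The other 7 of the 14 largest rises were those of Gem, Socs3, S1pr3, Stx11, Ccn4, Tinf2 and Maff. Gem, a small GTPase that restrains calcium channels, rose by at least 3.71-fold. Socs3, an inhibitor of cytokine signalling, rose by at least 2.89-fold, S1pr3, a receptor of sphingosine-1-phosphate, by at least 4.10-fold, and Stx11, a syntaxin of membrane fusion, by at least 3.45-fold. The other S1pr3 probe, detected on 2 CT16 VIP arrays, differed by 1.22 (SE 0.22, adjusted p = 0.011). Ccn4, a secreted matricellular protein, rose by at least 2.63-fold and Tinf2, a component of the telomere-binding complex, by at least 2.34-fold. By their brightest probes, none of these 6 genes was detected on any CT10 array, and all were detected on the 4 CT16 VIP arrays. Maff, a small bZIP transcription factor detected on 1 CT10 array, was at 5.82 to 5.97 in CT10 and at 8.11 to 8.48 in CT16 VIP (log2 difference 2.42, SE 0.16, adjusted p = 4.6e-06).

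**Figure D2:**
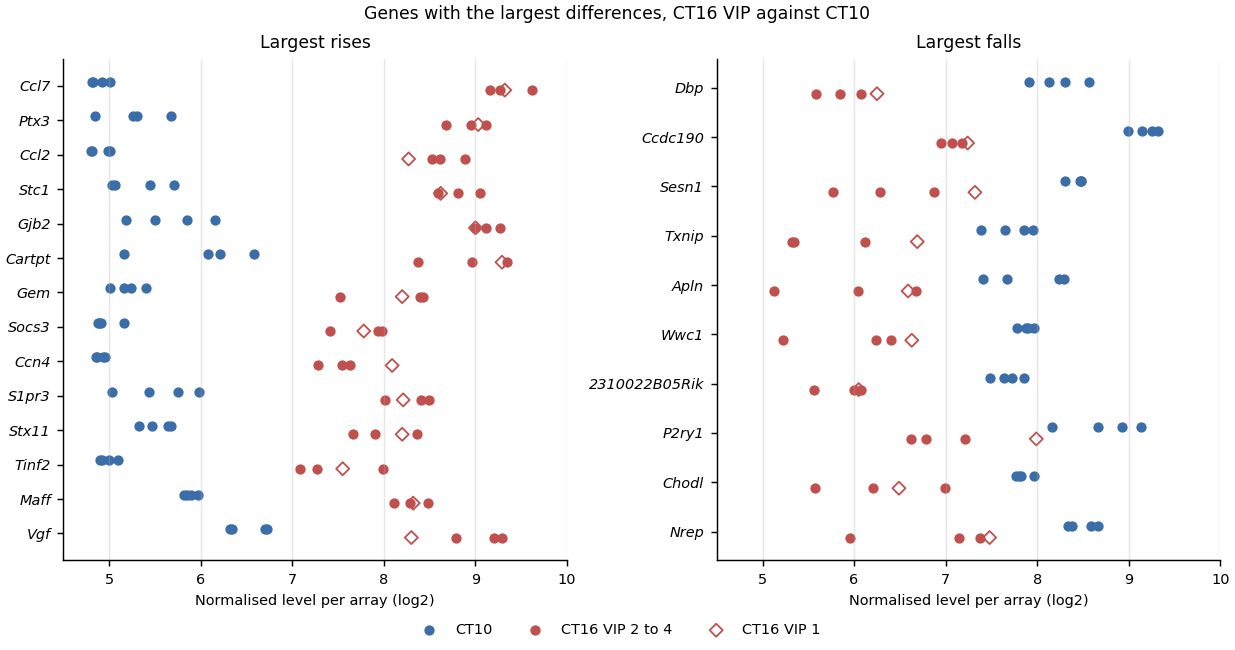
Normalised log2 level on each array for the 14 genes with the largest rises (left) and the 10 with the largest falls (right), with CT10 arrays in blue, CT16 VIP 2 to 4 in filled red and CT16 VIP 1 as an open diamond. The genes were chosen among those whose groups do not overlap. CT16 VIP 1 is the highest of its group for Dbp, Ccdc190, Sesn1, Txnip, Wwc1, P2ry1 and Nrep, and thus nearest to CT10.

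The differences were about as large without CT16 VIP 1 and smaller on the authors' scale. Without that array, the differences were 4.37 for Ccl7, 3.56 for Ptx3, 3.68 for Ccl2, 3.43 for Stc1, 3.39 for Gjb2 and 2.84 for Cartpt, each still called. In the authors' variance-stabilised values they were 2.08 for Ccl7, 1.64 for Ptx3, 1.50 for Ccl2, 1.49 for Stc1, 1.64 for Gjb2 and 1.47 for Cartpt, all called as well. The size of these rises from near background thus moved with the normalisation, and their calls did not.

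The promoters of the named rises were searched for the motif TGACGTCA (the full CRE), since VIP acts through cAMP, and for TGACG (its core, part of the full motif) and CACGTG (the E-box bound by CLOCK and BMAL1), on both strands, in RefSeq windows from 250 bases before to 50 after a gene's start (GRCm38.p6). The windows cover 8 of the 14 named rises. A full CRE was present in 3 of these, Cartpt, Tinf2 and Maff, and the core alone in Gjb2. These 4 windows are shown because they belong to genes that rose most and carry a match. They are written 5′ to 3′ along the gene's strand, with CRE, core and E-box matches in capitals.
Cartpt: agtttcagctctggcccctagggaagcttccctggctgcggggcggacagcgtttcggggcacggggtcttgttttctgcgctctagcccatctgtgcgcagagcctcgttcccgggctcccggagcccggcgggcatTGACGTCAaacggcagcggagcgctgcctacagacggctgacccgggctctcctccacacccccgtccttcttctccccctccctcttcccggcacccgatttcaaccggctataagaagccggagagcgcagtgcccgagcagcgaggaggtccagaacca
Tinf2: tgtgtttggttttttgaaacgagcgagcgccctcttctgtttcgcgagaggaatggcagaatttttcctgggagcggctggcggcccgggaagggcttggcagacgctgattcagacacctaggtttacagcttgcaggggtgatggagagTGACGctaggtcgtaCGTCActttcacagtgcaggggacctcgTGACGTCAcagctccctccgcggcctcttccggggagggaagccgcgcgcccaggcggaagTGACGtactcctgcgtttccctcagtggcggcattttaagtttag
Maff: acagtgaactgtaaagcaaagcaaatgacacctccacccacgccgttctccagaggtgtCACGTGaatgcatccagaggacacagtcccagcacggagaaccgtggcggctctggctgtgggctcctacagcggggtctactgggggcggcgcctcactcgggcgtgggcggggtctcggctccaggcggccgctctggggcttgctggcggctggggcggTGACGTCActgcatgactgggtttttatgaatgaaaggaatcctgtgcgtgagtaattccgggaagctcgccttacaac
Gjb2: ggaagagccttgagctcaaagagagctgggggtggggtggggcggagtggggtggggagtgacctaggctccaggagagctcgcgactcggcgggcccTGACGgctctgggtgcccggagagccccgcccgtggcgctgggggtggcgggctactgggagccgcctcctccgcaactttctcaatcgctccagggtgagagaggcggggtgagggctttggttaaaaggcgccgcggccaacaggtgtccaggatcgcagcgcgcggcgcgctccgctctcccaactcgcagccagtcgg
The windows lie at chr13:99900634-99900933 (minus strand) for Cartpt, chr14:55681768-55682067 (minus strand) for Tinf2, chr15:79347270-79347569 (plus strand) for Maff and chr14:57104653-57104952 (minus strand) for Gjb2. Counted from the start site, the full CRE begins at -112 in Cartpt, -56 in Tinf2 and -29 in Maff. The Maff window also holds an E-box at -191, and the core of Gjb2 begins at -152. Maff has further windows, which are not shown, and none of them holds a full CRE. The 9 covered genes of the 10 named falls, Dbp among them, held neither a full CRE nor an E-box in these windows. The core was present in 1 of them, Sesn1, at -61.

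Across all calls, 147 of the 198 higher genes and 80 of the 96 lower genes had a window. A full CRE was in 10 of the 199 windows of higher genes (5.03%), in 2 of the 118 windows of lower genes (1.69%), in 3.15% of the 10452 windows of all genes tested and in 1.79% of the 32851 windows of the whole table. The core was in 35.7%, 25.4% and 31.1% of the windows of higher, lower and all tested genes. The E-box was in 9.05%, 7.63% and 9.62%, and the CArG box, which serum response factor binds, in 3.02%, 0% (0 of 118) and 1.30%. These shares are descriptions without a test, and a match in a window is not evidence of binding.

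Immediate early genes, many of which code for transcription factors, are induced without new protein synthesis. Of 19 measured, 9 rose, none fell and 10 did not pass the test, with a median log2 difference of 1.01. For this and the list counts that follow, the shares over all genes were 1.94% higher and 0.942% lower. The AP-1 gene Fosl2 was at 6.49, 6.96, 6.94 and 6.79 in CT10 and at 9.08, 9.13, 9.11 and 9.11 in CT16 VIP, a difference of 2.31 (SE 0.17, adjusted p = 8.2e-06). Fos was at 5.77 to 6.35 in CT10 and at 8.13 to 8.38 in CT16 VIP (difference 2.21, adjusted p = 1.7e-05). Egr1, an activity-induced zinc-finger factor, rose by 1.82 (adjusted p = 4.6e-05), and its relative Egr2 by 1.87 (adjusted p = 0.00029). In the normalisation of 16 arrays, Egr2 averaged 5.67 at CT10, 7.24 ± 0.88 (SD, n = 4) with vehicle at CT12 and 7.58 in CT16 VIP. The same means were 6.79, 7.79 and 9.08 for Fosl2, and 6.06, 6.70 and 8.27 for Fos. Vehicle means, without VIP, thus lay above the CT10 means, and for Egr2 near that of CT16 VIP. Egr3, Btg2, Ier3 and Nr4a3 also rose. Among those that did not pass were Jun, with a difference of 0.53, Npas4, with 0.07, and Nr4a2, with 0.77 (adjusted p = 0.052). Without CT16 VIP 1, 11 of 16 measured were higher.

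Of 25 measured genes of the CREB and cAMP list, 5 rose, none fell and 20 did not pass, with a median of 0.09. Those that rose were Crem and 4 of the 5 measured phosphodiesterase genes. Crem, which encodes both activators and the inducible repressor ICER, was at 6.24 to 6.94 in CT10 and at 8.38 to 8.71 in CT16 VIP (difference 1.90, SE 0.19, adjusted p = 0.00012), and all 3 of its probes were called. Of the phosphodiesterase genes, whose enzymes degrade cyclic nucleotides, Pde4a rose by 1.96 (adjusted p = 0.00024), Pde4b by 1.74 (adjusted p = 0.00033), Pde4d by 1.41 (adjusted p = 0.00086) and Pde7b by 0.84 (adjusted p = 0.037), while Pde10a differed by 0.48 (adjusted p = 0.42). Creb1 itself differed by 0.09 and Prkaca, the catalytic subunit of protein kinase A, by 0.02. Sik1, a CREB-restraining kinase, differed by 0.68 (adjusted p = 0.20).

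Of the genes of dual specificity phosphatases, which remove phosphates from MAP kinases, 2 of 9 rose. Dusp1 was at 7.82, 8.29, 8.27 and 8.29 in CT10 and at 9.90, 9.77, 9.56 and 9.58 in CT16 VIP (difference 1.54, SE 0.18, adjusted p = 0.00044). Dusp10 differed by 0.99 (adjusted p = 0.037), with 1 of its 2 probes called and 9 of 18 alternative settings losing the call. Dusp4 was at 8.06, 8.25, 7.38 and 7.85 in CT10 and at 8.23, 7.70, 7.77 and 7.89 in CT16 VIP. The groups overlapped, and the difference of 0.01 (SE 0.22, adjusted p = 0.99) changed sign without CT16 VIP 1. This is its brightest probe, and its other probes, each detected on 2 CT10 arrays, differed by 0.13 (SE 0.30) and 0.62 (SE 0.34, adjusted p = 0.46). In the list named ERK feedback, which also holds Ras-like and other small GTPase genes, 2 of 13 rose, Gem and Phlda1. In the same list 1 fell, the Ras-like gene Rasl11b (difference -1.10, SE 0.21, adjusted p = 0.013). In the normalisation of 16 arrays Rasl11b averaged 9.84 at CT10 and 8.75 in CT16 VIP. At CT12 it was already as low with vehicle, at 8.59 ± 0.49 (SD, n = 4), and was 9.25 with VIP. Among the other members of the list, none of which passed, the feedback inhibitor Spry2 had a mean of 8.73 in both groups. Spred2 differed by 0.03 and Errfi1 by 0.79 (adjusted p = 0.063).

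Chemokine and cytokine genes formed the list with the most calls beside the immediate early genes. Of 21 measured, 9 rose, none fell and 12 did not pass, with a median of 0.73. Beside Ccl7, Ccl2 and Socs3, the genes of the interleukin-6 family cytokines Il11 and Lif rose. Il11 was at 5.05 to 5.26 in CT10 and at 6.54 to 7.50 in CT16 VIP (at least 1.92-fold higher, adjusted p = 0.00022). Lif had a mean of 4.88 in CT10 and 6.79 in CT16 VIP, where 3 of 4 arrays detected it (at least 1.47-fold higher, adjusted p = 2.8e-05). Osmr, a receptor subunit of the same family, was at least 1.82-fold higher (adjusted p = 0.00041), and Il1b, Tnfrsf12a and Nfkbia also rose. Il6 differed by 0.70 (adjusted p = 0.23), and Cxcl10 by 1.50 (SE 0.42, adjusted p = 0.10). Stat3, the transcription factor downstream of these receptors, differed by 0.73 (adjusted p = 0.060) and was called without CT16 VIP 1 (0.84, adjusted p = 0.020).

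Markers of immune and vascular cells are given beside this list. None of 10 measured microglial markers was called, their median difference was -0.36, and the log2 of their summed level was 11.03 to 11.40 in CT10 and 10.92 to 11.05 in CT16 VIP. Their differences ran from -1.0 (P2ry12) to 0.15 (Cd68), with -0.50 for Aif1, -0.08 for Tyrobp and 0.04 for C1qa. Only 3 of 11 endothelial and mural markers were measured (Cldn5, Kcnj8, Rgs5), each detected on 1 CT16 VIP array and no CT10 array, and none passed the filter without CT16 VIP 1. Their summed level was 6.85 to 7.17 in CT10 and 7.37 to 7.87 in CT16 VIP, with 7.75 on CT16 VIP 1, and none was called. Over all genes 1.94% were higher and 0.942% lower, so that a count of 0 among so few markers is near the background. The part of these cells in the result was not tested.

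**Figure D3:**
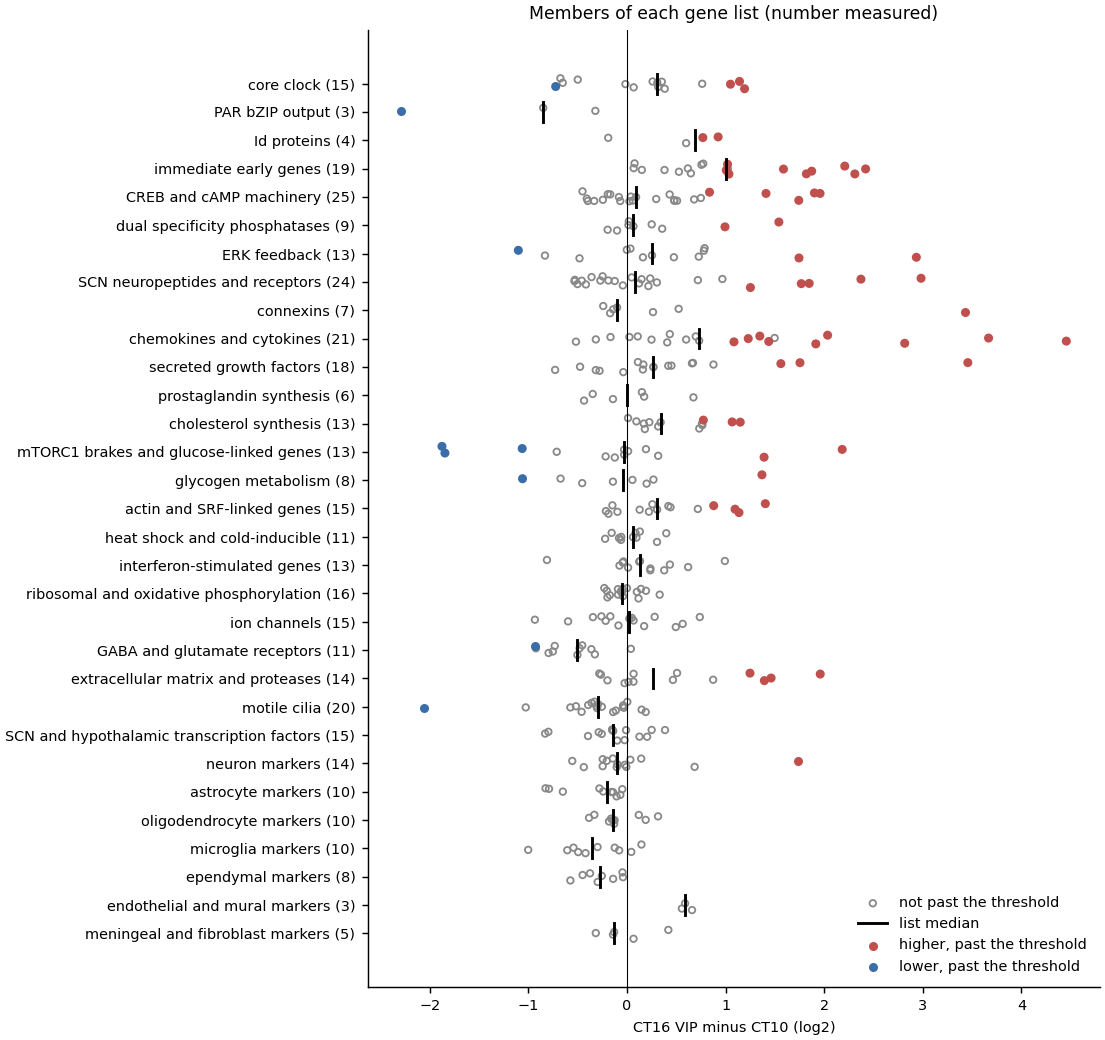
Log2 differences (CT16 VIP minus CT10) of the measured members of 31 gene lists, 1 point a gene, with the number measured in brackets. Filled points are past the adjusted p of 0.05 (red higher, blue lower), open points are not, and the black bar is the list median, which is 1.01 for immediate early genes and -0.50 for GABA and glutamate receptors.

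Among 24 measured genes of SCN neuropeptides and their receptors, 5 rose and none fell, with a median of 0.08. Beside Cartpt and Vgf these were Nts, Gal and Tac1. Nts, the neurotensin gene, was at 6.81, 5.85, 6.46 and 6.32 in CT10 and at 8.39, 8.05, 8.03 and 8.03 in CT16 VIP (difference 1.77, SE 0.22, adjusted p = 0.00055, 1 of its 2 probes called). Gal, the galanin gene, was at 6.79, 5.02, 5.24 and 5.04 in CT10 and at 8.12, 6.82, 7.68 and 6.85 in CT16 VIP. CT10 1 lay close to the lower CT16 VIP arrays, and the difference of 1.85 (SE 0.40, adjusted p = 0.027) missed the threshold without CT16 VIP 1 (1.54, adjusted p = 0.053) and under 7 of 17 alternative settings in all. Tac1, the substance P gene, was detected on 2 CT16 VIP arrays and no CT10 array (at least 1.13-fold higher, adjusted p = 0.0018). The classical SCN peptide genes did not pass: Vip was at 8.12 to 9.34 in CT10 and 7.66 to 9.09 in CT16 VIP (difference -0.36, SE 0.33), Avp differed by -0.50 and Grp by -0.27. Of 7 connexin genes only Gjb2 was called, and Gja1, the main connexin gene of astrocytes, differed by -0.10 (SE 0.19).

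In the core clock list 3 of 15 genes rose and 1 fell, with a median of 0.31. Bhlhe40, also known as Dec1, a repressor at E-boxes, was at 8.35, 8.69, 8.49 and 8.54 in CT10 and at 9.97, 9.73, 9.61 and 9.53 in CT16 VIP (difference 1.19, SE 0.17, adjusted p = 0.0026). The nuclear receptor gene Rorb rose by 1.14 (SE 0.19, adjusted p = 0.0056), with both probes called, and the F-box gene Fbxl21 by 1.05 (adjusted p = 0.020), a call that 8 of 18 alternative settings lost. Nr1d2, which encodes the repressor REV-ERB beta, fell, with levels of 10.28 to 10.40 in CT10 and 9.46 to 9.89 in CT16 VIP (difference -0.72, SE 0.17, adjusted p = 0.043), and 9 of 18 alternative settings lost this call. Its paralog Nr1d1 differed by -0.68 (adjusted p = 0.076).

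The Per and Cry genes did not pass. Per1 was at 5.99, 5.62, 5.97 and 6.27 in CT10 and at 5.33, 5.91, 6.77 and 5.77 in CT16 VIP, and 1 array of each group detected it. The groups overlapped, and the difference of -0.02 (SE 0.27, adjusted p = 0.99) was 0.18 without CT16 VIP 1. Per2 was at 8.19, 8.41, 7.37 and 7.97 in CT10 and at 8.51, 8.36, 8.24 and 8.25 in CT16 VIP (difference 0.35, SE 0.22, adjusted p = 0.54). Its lowest CT10 array was CT10 4, and the remaining values of both groups lay close together. Cry1 differed by 0.26 (SE 0.27), Rora by 0.32 (SE 0.18) and Arntl, the gene of BMAL1, by 0.76 (SE 0.24, adjusted p = 0.14).

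Dbp, a PAR bZIP transcription factor driven from E-boxes and a classical clock output, had the largest fall. It was at 8.13, 7.91, 8.57 and 8.30 in CT10 and at 6.25, 6.08, 5.85 and 5.58 in CT16 VIP, where 1 of 4 arrays detected it (difference -2.29, SE 0.21, adjusted p = 4.4e-05). Without CT16 VIP 1 the difference was -2.34. The other measured members of the PAR bZIP list did not pass: Hlf differed by -0.85 (adjusted p = 0.15) and Tef by -0.32 (adjusted p = 0.43). In the Id list, whose proteins block bHLH factors, Id2 rose by 0.77 (SE 0.16, adjusted p = 0.026) by its brightest probe. This call was lost under 8 of 18 alternative settings. All 3 Id2 probes were called, the others with differences of 1.81 (adjusted p = 0.00029) and 1.39 (adjusted p = 0.00041). Id1 differed by 0.92 (adjusted p = 0.043), a call lost without CT16 VIP 1 (adjusted p = 0.069) and under 13 of 17 alternative settings.

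The remaining large falls included genes of metabolism and receptors. Txnip, an inhibitor of thioredoxin and glucose uptake, was at 7.65, 7.39, 7.95 and 7.86 in CT10 and at 6.69, 5.32, 5.34 and 6.12 in CT16 VIP (difference -1.85, SE 0.29, adjusted p = 0.0040, 1 of its 2 probes called). Sesn1, a stress-induced restraint on mTORC1, was at 8.48, 8.30, 8.47 and 8.48 in CT10 and at 7.32, 6.28, 5.77 and 6.87 in CT16 VIP (difference -1.88, SE 0.28, adjusted p = 0.0028). In both genes CT16 VIP 1 was the highest of its group and lay nearest to CT10, and without it the differences were -2.06 and -2.10. By their brightest probes, both were detected on all 4 CT10 arrays but on only 1 CT16 VIP array. The sizes of these falls thus rest in part on values near background. Ccdc190, a coiled-coil gene placed in the list of motile cilia, fell, with levels of 8.99 to 9.32 in CT10 and 6.95 to 7.24 in CT16 VIP (difference -2.06, SE 0.17, adjusted p = 1.7e-05), with both probes called. It was the only one of 20 measured cilia genes called, and the list median was -0.30.

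Apln, which encodes the peptide ligand apelin, fell by 1.79 (SE 0.33, adjusted p = 0.010), and P2ry1, an ADP receptor gene, differed by -1.57 (SE 0.30, adjusted p = 0.013). P2ry1 was at 8.16, 8.66, 9.13 and 8.93 in CT10 and at 7.99, 7.21, 6.79 and 6.62 in CT16 VIP, so that CT16 VIP 1 lay just below CT10 1. Wwc1, the gene of the Hippo pathway protein KIBRA, fell by 1.76 (SE 0.27, adjusted p = 0.0030). The same size was found for 2310022B05Rik (difference -1.76, SE 0.18, adjusted p = 0.00016). Chodl, a C-type lectin gene, fell by 1.52 (adjusted p = 0.0065) and Nrep by 1.50 (adjusted p = 0.016). All of these genes were detected on the 4 CT10 arrays. In CT16 VIP, 2310022B05Rik was detected on 1 array, Apln, Wwc1 and Chodl on 2 each, and P2ry1 and Nrep on 3 each. The sizes of these falls thus also rest in part on values near background.

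The list of mTORC1 brakes and glucose-linked genes moved both ways. Of 13 measured, 3 fell (Sesn1, Txnip and Pdk4) and 2 rose (Irs2 and Ddit4l). Irs2, an adaptor of the insulin receptor, was at 5.28 to 5.76 in CT10, where no array detected it, and at 7.62 to 7.78 in CT16 VIP (at least 2.75-fold higher, adjusted p = 1.8e-05). Ddit4l, a relative of the mTORC1 inhibitor REDD1, was at 8.71, 9.20, 8.44 and 8.47 in CT10 and at 10.39, 10.07, 9.92 and 9.99 in CT16 VIP (difference 1.39, SE 0.21, adjusted p = 0.0028). Pdk4, a kinase that inhibits pyruvate dehydrogenase, fell by 1.06 (adjusted p = 0.034), and without CT16 VIP 1 differed by -0.93 (adjusted p = 0.059). It was detected on 1 CT16 VIP array. In glycogen metabolism Ppp1r3c, a subunit that targets phosphatase to glycogen, rose by 1.37 (SE 0.19, adjusted p = 0.0017), and Pygb, the brain glycogen phosphorylase, fell by 1.06 (adjusted p = 0.028), a call lost under 8 of 18 alternative settings. The other 6 glycogen genes did not pass.

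Secreted growth factor genes rose in 3 of 18 cases, Stc1, Hbegf and Fgf2. Hbegf, an EGF receptor ligand, was at 7.58, 7.58, 8.29 and 7.52 in CT10 and at 9.06, 9.60, 9.59 and 9.74 in CT16 VIP (difference 1.75, SE 0.22, adjusted p = 0.00079). Fgf2 rose by 1.56 (adjusted p = 0.00058). Of 14 extracellular matrix and protease genes 4 rose: the proteoglycan-cleaving Adamts1, by 1.96 (adjusted p = 0.00019), and Adamts4, by 1.46 (adjusted p = 0.0029), the protease inhibitor Timp1, by 1.39 (adjusted p = 0.016), and the hyaluronan synthase Has2, by 1.25 (adjusted p = 0.0049). Of 15 actin and SRF-linked genes 4 rose, Tpm4 (1.40), Lmna (1.14), Ccn1 (1.10) and Tpm3 (0.88). The call of Tpm3 was lost under 7 of 18 alternative settings, and for Lmna 1 of 5 probes was called. Among the genes named above with several probes, 1 of 2 was called for Nr1d2, Rasl11b, Pde4d and Timp1, 2 of 3 for Fbxl21, Ccn1 and Adamts1, and 3 of 4 for Pde4b, with no probe called in the opposite direction. Of 13 cholesterol synthesis genes 3 rose: Pmvk by 1.15, Msmo1 by 1.07 and Idi1 by 0.77, the last call being lost under 8 of 18 alternative settings.

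Receptors for GABA and glutamate had the lowest median of the lists with more than 3 measured genes. Of 11 measured, 1 fell, Grm5, a metabotropic glutamate receptor (difference -0.93, SE 0.20, adjusted p = 0.025, 1 of its 3 probes called and the call lost under 8 of 18 alternative settings), and the median of the 11 was -0.50, against -0.04 over all genes. Grm5 was detected on all 4 CT10 arrays and on 2 CT16 VIP arrays. Gabrb1 differed by -0.92 (adjusted p = 0.080) and Gabra3 by -0.80 (adjusted p = 0.11). Without CT16 VIP 1, 3 of the 11 were lower. Neuronal markers are given beside this list: of 14 measured, 1 was called, the neurofilament gene Nefm, which rose by 1.73 (SE 0.24, adjusted p = 0.0016), and the median of the list was -0.10. Their summed level was 12.62 to 12.83 in CT10 and 12.57 to 12.72 in CT16 VIP. That of astrocyte markers was 13.30 to 13.60 and 13.18 to 13.32, with a median difference of -0.20 and no call among 10, although Aldh1l1 was lower without CT16 VIP 1 (-0.94, adjusted p = 0.035). None of 10 oligodendrocyte, 8 ependymal and 5 meningeal markers was called. With 1.94% of all genes higher and 0.942% lower, a count of 0 in marker lists of this size is near the background. The part of cell composition in these results was not tested.

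The 2 h comparison, CT12 VIP vs. CT12 Veh, shares no array with CT16 VIP vs. CT10 and has a vehicle control of its own time. It called 487 of 17605 probes (2.77%). Of 16475 probes tested in both, 289 were higher at 6 h and 338 at 2 h, and 142 were higher in both, 49.1% of the 6 h list and 42.0% of the 2 h list. Of the lower probes, 130 at 6 h and 111 at 2 h, 6 were shared (4.62% and 5.41%). The background for the shares of the 6 h lists is 338 higher and 111 lower at 2 h among all 16475 probes. Without CT16 VIP 1 the shared numbers were 138 of 299 higher (46.2%) and 10 of 260 lower (3.85%). A probe past the threshold at 1 time alone is not thereby shown to differ, so the difference between the changes was tested in a fit of all 16 arrays. It passed for 116 of 19893 probes (0.583%). Of the 312 probes higher at 6 h, 40 had a larger change at 6 h, 4 a smaller change, and 268 did not pass. Of the 133 lower probes, 17 had a larger fall at 6 h, none a smaller one, and 116 did not pass.

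Of the 14 genes with the largest rises at 6 h, 5 had a difference between the changes that passed (Stc1, Gjb2, Ptx3, Ccl2 and Stx11). They were taken from the 6 h list, which favours a larger change at 6 h, and none was detected on a CT10 array, so their fitted changes rest on values near background. In the fit of 16 arrays Stc1 changed by 3.49 at 6 h and 1.41 at 2 h, a difference of 2.08 (adjusted p = 0.00046). Gjb2 changed by 3.44 and 1.44 (difference 2.00, adjusted p = 0.0059), Ptx3 by 3.70 and 1.79 (difference 1.91, adjusted p = 0.019) and Ccl2 by 3.71 and 1.49 (difference 2.22, adjusted p = 0.041). For Ccl7, with changes of 4.49 and 1.77, the difference of 2.72 did not pass (adjusted p = 0.10). Its mean level in that fit was 6.33 ± 1.63 (SD, n = 4) with vehicle and 8.10 ± 0.26 with VIP at CT12, against 4.83 ± 0.09 at CT10 and 9.32 ± 0.19 with VIP at CT16, so that the vehicle arrays were the most spread. Other vehicle means also lay above those at CT10. They were 5.89 ± 1.07 against 4.84 for Ccl2, 6.58 ± 0.53 against 5.48 for Stx11 and 5.82 against 5.22 for Ptx3. For Stc1 they were 5.36 and 5.26, and for Gjb2 5.45 and 5.63. With VIP at 2 h and 6 h the means were 7.38 and 8.55 for Ccl2 and 7.61 and 8.02 for Stx11. The difference between the changes thus includes that between the baselines. Dbp was lower by 2.30 at 6 h and by 0.62 at 2 h, a difference of -1.68 (adjusted p = 0.0012).

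Ddit4l changed in opposite directions at the 2 times. It was higher by 1.38 at 6 h and lower by 1.14 at 2 h (difference 2.52, adjusted p = 0.00012), and both of the separate comparisons passed the test. Dusp4 changed by 2.01 at 2 h and 0.01 at 6 h (difference -2.0, adjusted p = 0.011). Its vehicle mean was 6.85 ± 0.64 (SD, n = 4), below the CT10 mean of 7.87 ± 0.37, while the means with VIP were 8.86 ± 0.20 at 2 h and 7.89 ± 0.23 at 6 h. Per1 changed by 1.23 at 2 h, where it was called, and by -0.02 at 6 h, but the difference of -1.25 did not pass (adjusted p = 0.16). For Cartpt (2.98 at 6 h, 3.18 at 2 h), Fos (2.21 and 3.06), Maff (2.43 and 3.17), Crem (1.89 and 2.53) and Txnip (-1.87 and -1.86) the difference did not pass either. Some genes not called at 6 h had large changes at 2 h, and those given next were chosen after their values were seen. Ptgs2, the inducible cyclooxygenase of prostaglandin synthesis, differed by 0.67 (adjusted p = 0.21) at 6 h and by 3.65 (adjusted p = 1.2e-06) at 2 h in the separate fits, and the difference between the changes was -2.92 (adjusted p = 4.0e-05). For Il6 the difference between the changes was -2.55 (adjusted p = 0.00068), for the chemokine gene Cxcl2 -2.01 (adjusted p = 0.019), for the AP-1 gene Fosb -2.35 (adjusted p = 0.023) and for the nuclear receptor gene Nr4a2 -1.77 (adjusted p = 0.0020). The baselines differ between the times, untreated at CT10 and vehicle at CT12, and this cannot be told apart from time after VIP.

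**Figure D4:**
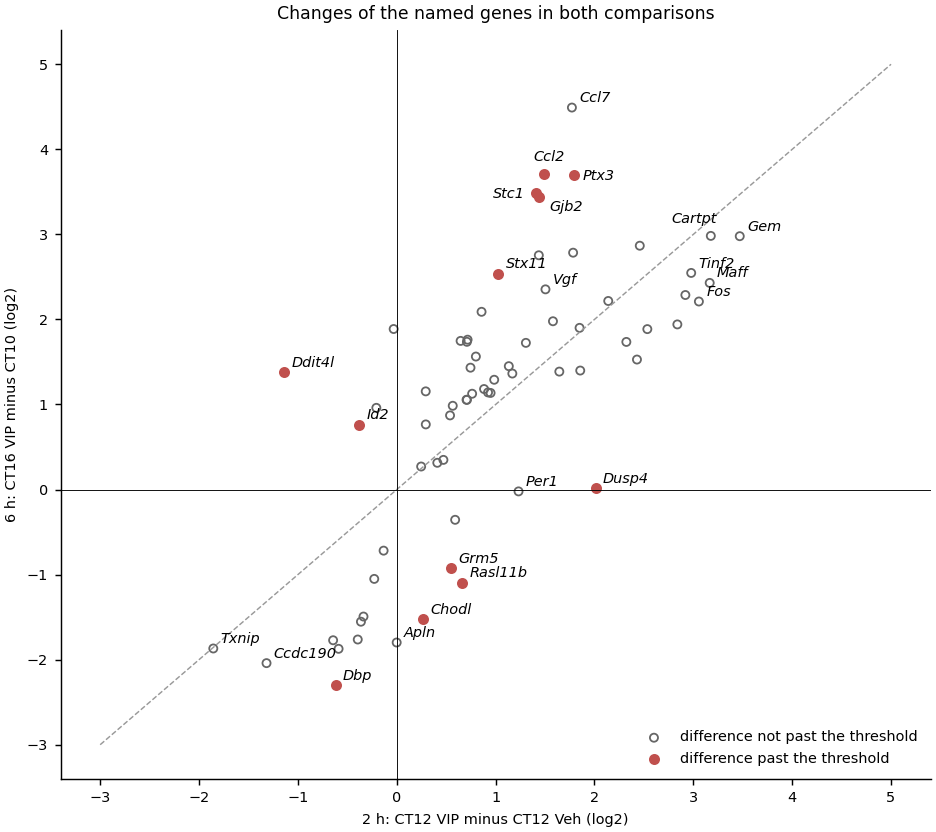
Log2 change of each of the 69 named genes at 2 h (CT12 VIP minus CT12 Veh, x axis) and 6 h (CT16 VIP minus CT10, y axis), in 1 limma fit of the 16 arrays, with the dashed line marking equal change. The 12 filled points are genes whose difference between the changes passed an adjusted p of 0.05, among them Ddit4l at 1.38 and -1.14 and Dusp4 at 0.01 and 2.01 (6 h and 2 h).

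A list of 13 genes was drawn from the study's text, which discusses further genes. It includes Vip itself and Cry1, and it was drawn up with results of these samples known and is thus no independent evidence of direction. Of these genes 12 were measured. In CT16 VIP vs. CT10, 5 were higher (Gjb2, Cartpt, Vgf, Dusp1 and Bhlhe40), 1 was lower (Dbp) and 6 did not pass (Per1, Per2, Rora, Cry1, Dusp4 and Vip).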

How the data were processed

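Each array, an Illumina MouseWG-6 v2 BeadChip, received amplified RNA of 1 SCN slice, as far as the sources tell. The authors deposited, per the file headers, a signal intensity and a detection p-value for each of 45281 probes and array before normalisation, and log2-scale values that, per the study's methods, had been filtered on detection, variance-stabilised (a scale close to log2) and quantile normalised with lumi (version not given in the sources used here). The bead summary software and array positions are not given in the sources used here. Per the study's methods, a few samples had lower RNA integrity than the rest. They are not named, so RNA quality cannot be set beside single arrays such as CT16 VIP 1. Values normalised for the pair CT12 Veh and CT12 VIP served as an alternative, and those for CT12 VIP and CT16 VIP were not used.

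The intensities of the 8 arrays were corrected for background and quantile normalised with neqc of limma 3.58.1 (R 4.3.3), using the detection p-values and an offset of 16. A probe was kept when any of these arrays detected it at a p of 0.01 (18763 probes), and the kept probes were fitted with lmFit and eBayes, 2-sided, with Benjamini-Hochberg adjustment. The fit was tested on simulated data. Probes were named from the platform annotation, updated through RefSeq tables, and a gene was taken by its brightest probe. The authors' globally normalised values served as a check. Where every array of a group was below detection, a fold is a lower bound, as its text says.

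Named genes are the 14 largest rises and 10 largest falls with groups that do not overlap, a list of 13 genes from the study's text, and up to 4 called members of each list; other list members in the text were picked with their values in view. The comparison, members and lists were chosen with earlier results of these data known. Array numbers limit precision to 4 slices a group. One statement in the series text places the 6 h harvest at CT12, but the sample labels and the methods give CT16, which is used here.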

Additional observations from a re-analysis of the deposited data

Results flagged for a closer look

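The change at 6 h minus the change at 2 h, on the log2 scale and tested across all probes with limma, passed for 12 of the 69 named genes. It was 1.91 for Ptx3 (adjusted p = 0.019), 2.22 for Ccl2 (0.041), 2.08 for Stc1 (0.00046), 2.00 for Gjb2 (0.0059), 1.51 for the syntaxin gene Stx11 (0.029), 1.14 for Id2 (0.0026) and 2.52 for Ddit4l (0.00012). It was -1.68 for Dbp (0.0012), -1.79 for Chodl (0.049), -2.0 for Dusp4 (0.011), -1.76 for Rasl11b (0.012) and -1.47 for Grm5 (0.011). The comparisons have different baselines, and the part of the baseline was not tested.

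In 9 of 138 groups of 4 arrays (6.52%) 1 array stood far from the other 3 in a named gene, and chance gives about 1 in 20. In CT10 these were Socs3 on CT10 1 (5.16, others 4.88 to 4.91), Sesn1 on CT10 3 (8.30, others 8.47 to 8.48), Dusp1 on CT10 1 (7.82, others 8.27 to 8.29), Gal on CT10 1 (6.79, others 5.02 to 5.24) and Hbegf on CT10 4 (8.29, others 7.52 to 7.58). In CT16 VIP they were 2310022B05Rik on CT16 VIP 3 (5.56, others 6.00 to 6.08), Nts on CT16 VIP 1 (8.39, others 8.03 to 8.05), Idi1 on CT16 VIP 4 (10.36, others 10.68 to 10.72) and Adamts1 on CT16 VIP 2 (8.92, others 8.71 to 8.73).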

How the results depend on the processing

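All 63 called named genes kept their direction under the alternatives run, and 40 of them kept the call under each. The counts moved more. Against 445 probes called, a normalisation of 16 arrays with a fit of 4 groups called 921 (498 higher, 423 lower), a covariate for how many probes each array detected 708 (287 lower), and unadjusted p-values 2619 (1144 higher, 1475 lower). Leaving out the arrays with fewer than 10000 detected probes, CT16 VIP 3 and 4, called 282 (53 lower). Of lower probes, the series matrix values called 200, detection on every array of a group 221 and array weights, with a weight of 0.394 for CT16 VIP 1, 234. Leaving out 1 array gave 232 to 584 called, 188 to 320 higher and 44 to 264 lower, with the total moving by over 1.5 times without CT10 1 (289), CT10 4 (262) and CT10 5 (232). For CT12 VIP vs. CT12 Veh it gave 307 (without CT12 VIP 4) to 388, and the authors' values for that pair 738. For the difference between the changes it gave 68 (without CT12 VIP 4) to 187 (without CT16 VIP 1), and the series matrix values 206. The cause was not tested.

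Per1, which did not pass, had a positive difference in the series matrix values (0.004), with a replicate block (0.098) and with array weights (0.104), and -0.299 to 0.182 with 1 array left out. Dusp4 was at -0.038 with array weights and -0.154 to 0.137 with 1 array left out, and at 0.254 as the mean of its probes.

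With the replicate number as a block, 137 probes were called (121 higher, 16 lower). Same-numbered arrays of both groups deviated together at r = 0.287 for number 1, 0.061 for 3 and -0.02 for 4. Pairs with different numbers ran from -0.212 to 0.149, so that number 1 lay above this range and 3 and 4 within it. The numbers were not taken as a pairing in the main fit. The block uses the 3 shared numbers.

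With 4 slices a group and many genes near background, small differences were not detectable.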

Other observations

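The following small gene groups had no call in CT16 VIP vs. CT10, where 1.94% of all genes were higher and 0.942% lower, so that a count of 0 is near the background. None of 11 heat shock and cold-inducible genes passed (differences of -0.22 to 0.40, median 0.06), nor did any of 16 ribosomal and oxidative phosphorylation genes (-0.23 to 0.33, median -0.05). The 13 measured interferon-stimulated genes ranged from -0.81 to 0.99 with a median of 0.13, and the 15 ion channel genes from -0.93 to 0.74 with a median of 0.02. Without CT16 VIP 1, 1 gene of each of these 2 groups was lower, Ifit2 (-1.06, adjusted p = 0.027) and Kcnj3 (-1.03, adjusted p = 0.040). Among 15 transcription factors of the SCN and hypothalamus none passed, with Lhx1 at -0.40 (SE 0.31) and Zfhx3 at 0.25 (SE 0.35). None of 6 prostaglandin synthesis genes was called. In addition, 22 of the higher and 8 of the lower probes had no gene name.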
